A study of Rattus norvegicus with 49 samples.

Results

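The genes described here drive or restrain the cell cycle and copy DNA. They were given as a list of 40 symbols, and a gene's value was taken from the probe set annotated with that symbol alone, the one with the highest mean where there were several. By this rule 38 of the 40 were measured, among 14217 genes on the array. Tpx2 had no probe set listed, and Rrm2 had only probe sets that also carry a second symbol.

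The samples were livers of 49 male Sprague-Dawley rats, 8 to 10 weeks old at the start, 1 Affymetrix array per rat. Group 1 ate powdered feed freely and, per the labels, was not fasted before necropsy, whereas group 2 ate freely and was fasted overnight. Groups 3, 4 and 5 received 15, 30 and 60% less feed and were also fasted overnight. Rats were kept on their diet for 4 or 14 days, called day 4 and day 14 here. There were 5 per group and day and 4 in group 1 on day 14. The paper's methods place necropsy on the day after. The series' design text states an overnight fast for all animals, which differs from the labels of group 1. The paper's methods name groups 2 to 5 as the fasted groups, as the labels do.

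A dividing cell passes from G1, where D-type and E-type cyclins with Cdk4 and Cdk2 release E2f factors, through S phase, where the Mcm helicase and the sliding clamp Pcna work at replication forks, to mitosis, which cyclin B with Cdk1 starts. Cdkn1a (p21) and Cdkn1b (p27) inhibit the cyclin-dependent kinases, and Wee1 holds Cdk1 inactive by phosphorylation. Most hepatocytes of an adult liver rest outside the cycle, and the tissue is known for re-entering it after loss of mass. In whole tissue, a lower level can mean fewer cells that express a gene or less RNA per cell, and these cannot be told apart.

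Values are log2 of the deposited intensity, and a change is the difference of 2 group means on that scale, so 1 is a 2-fold change. Levels are not compared between genes. A gene was called where limma's adjusted p, corrected over all 14217 genes, was below 0.1. Arrays of a group correlated with medians of 0.991 to 0.994, and the highest correlation of any 2 arrays was 0.99501. The 13 hepatocyte markers measured, of 14 listed, were all above the dim level (log2 4.94, the 25th percentile), with means of 13.9 to 14.1 over the rats. Ccna2, Cdk1, Mki67, Bub1 and Bub1b, 5 of the 38 genes, had means below the dim level, where 1 intensity unit is up to 0.17 on the log2 scale.

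Promoter sequences were listed in RefSeq (build GRCr8) for 29 of the 38 genes, the others being Ccnd1, Ccnd2, Ccne2, E2f1, Wee1, Mcm4, Ccna2, Ube2c and Aurkb. Letter patterns of 4 kinds known from cell cycle promoters were looked for on both strands in the 250 bases before the start that the RefSeq promoter table lists for 1 transcript of each gene. For 17 of the 29 genes that start lies inside the gene's listed span, downstream of another start, so their windows reach into the gene. The windows of Aurka, Birc5, Kif11 and Mki67 lie wholly inside it. The patterns were the CHR element (TTTGAA) and the CCAAT box (CCAAT), both known from genes of G2 and mitosis, E2F letters, known from genes of G1/S and searched as TTCGCGC, as another form TTGGCGC, as a further form TTCCCGC and as a last form TTGCCGC, and the E-box (CACGTG). The 4 stretches below are the 150 bases before the listed start of genes that were higher in fed rats on at least 1 day. They were picked by hand after the search, from genes whose window lies outside the gene's span: Cdc20 and Top2a because they hold a CHR element, the cyclin gene Ccnb1 for its pair of CCAAT boxes and Mcm6 for its E2F letters. Capitals mark CHR, CCAAT and E2F letters in either orientation, and the E2F letters of Mcm6 overlap on opposite strands.
Cdc20: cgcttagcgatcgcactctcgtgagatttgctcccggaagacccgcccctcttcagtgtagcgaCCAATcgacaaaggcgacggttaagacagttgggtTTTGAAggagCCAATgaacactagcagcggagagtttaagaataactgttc
Top2a: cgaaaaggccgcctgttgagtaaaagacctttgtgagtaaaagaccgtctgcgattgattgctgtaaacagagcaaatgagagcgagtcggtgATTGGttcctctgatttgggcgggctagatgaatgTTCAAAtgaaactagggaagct
Ccnb1: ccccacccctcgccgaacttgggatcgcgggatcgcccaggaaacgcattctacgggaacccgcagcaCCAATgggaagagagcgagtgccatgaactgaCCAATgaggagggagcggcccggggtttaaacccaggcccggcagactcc
Mcm6: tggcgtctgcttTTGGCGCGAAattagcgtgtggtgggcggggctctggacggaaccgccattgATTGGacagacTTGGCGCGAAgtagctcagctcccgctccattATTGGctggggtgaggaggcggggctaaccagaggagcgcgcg
Cdc20 lies at chr5:137255800-137255949 on the minus strand, Top2a at chr10:84473094-84473243 on the minus strand, Ccnb1 at chr2:33655226-33655375 on the minus strand and Mcm6 at chr13:42404353-42404502 on the minus strand. CHR letters stood in 8 of 15 mitotic promoters and in 1 of the 14 others, against 16% of 27457 promoters, 1 per gene. Of the 8, only Cdc20 and Top2a have a window outside the gene's span, and the windows of Birc5 and Mki67 lie wholly inside it. CCAAT stood in 12 of the 15 and 9 of the 14, against 34.3%. E2F letters stood in 3 of the 15 and 7 of the 14, against 7.97%, and with TTCGCGC or the form TTGGCGC alone in 2 and 5, against 3.08%. The E-box stood in 0 of the 15 and 2 of the 14, against 5.79%. Of the 10 genes with a listed promoter that were higher in fed rats on both days, 6 held a CHR element, Birc5 among them. These matches are a description and were not tested.

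The first comparison was fed against fasted rats, both eating freely. Of the 18 S/G2/M and mitotic genes, 8 were higher in fed livers on day 4 and 15 on day 14. On day 4, 14 of the 38 genes were higher and 2 lower, against 9.76% and 11.5% of all genes. On day 14, 21 were higher and 1 lower, against 7.26% and 5.92% of all genes. The median change of the 38 was 0.33 on day 4 and 0.39 on day 14, and that of all genes 0.00 and 0.01. The 2 days share no rats: 11 genes were higher on both, which is 78.6% of the 14 and 52.4% of the 21, while of all genes 626 were higher on both, 45.1% of the 1388 on day 4 and 60.7% of the 1032 on day 14. Of the calls, 6 of 16 on day 4 and 6 of 22 on day 14 were lost without at least 1 rat, among them Cdc20, Nusap1 and Tyms on day 4 and Aurkb, Bub1, Mki67, Mcm4 and Ccnd1 on day 14.

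**Figure D1:**
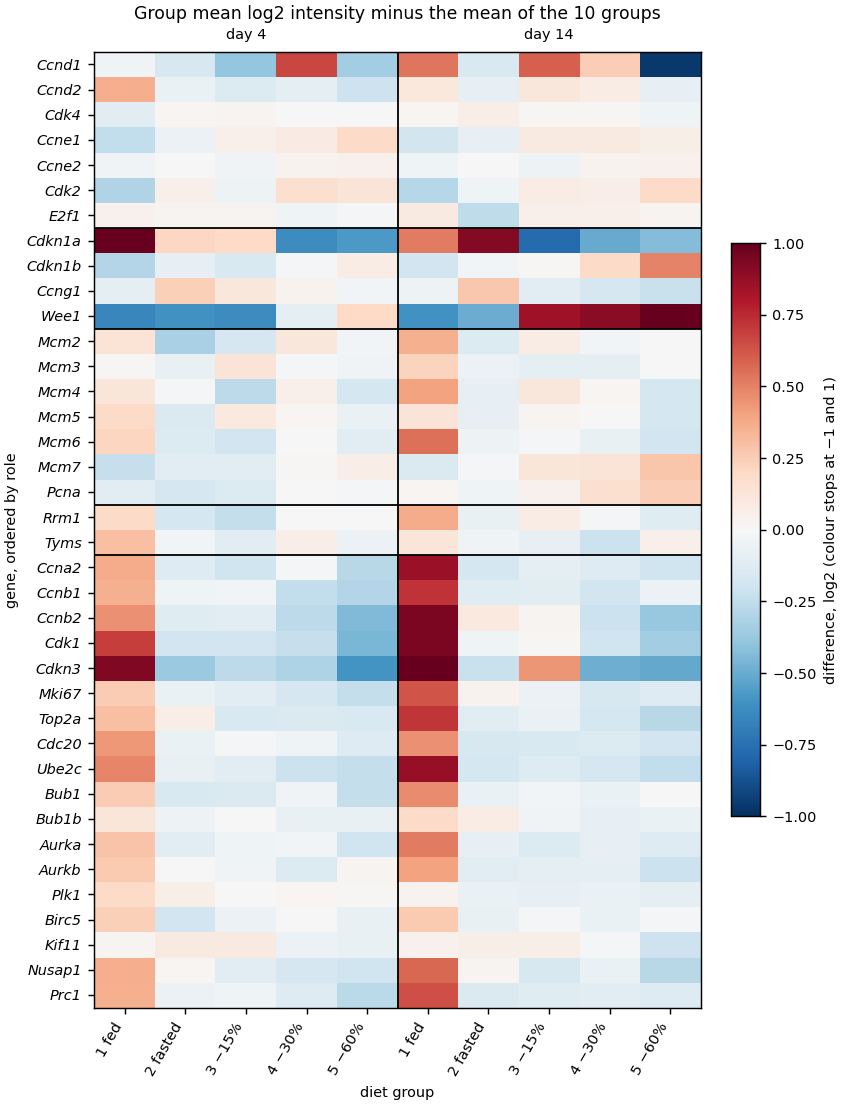
Each cell is a group's mean log2 intensity minus the mean of the 10 group means of that gene (red higher, blue lower, colour stopping at −1 and 1), for 38 genes in rows ordered by role and the 5 diet groups on day 4 (left) and day 14 (right). The lower block of mitotic genes is mostly red in group 1 on both days, and Wee1 is red in groups 3 to 5 on day 14.

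None of the 18 mitotic genes was called lower on either day. Cdkn3, a phosphatase that acts on cyclin-dependent kinases, differed most. Its log2 values were 4.95, 4.39, 4.70, 4.95 and 4.39 in fasted and 7.39, 5.70, 5.70, 5.39 and 5.70 in fed rats on day 4. On day 14 they were 4.46, 4.75, 4.70, 4.95 and 5.29 in fasted and 6.41, 6.29, 5.93 and 7.18 in fed rats. Every fed rat was above every fasted rat on both days. The difference was 1.30 ± 0.32 SE, adjusted p = 0.0179 on day 4 and 1.62 ± 0.23 SE, adjusted p = 0.00175 on day 14.

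Cdk1, the kinase that starts mitosis, was at log2 4.58, 4.75, 4.58, 5.04 and 4.52 in fasted and 6.58, 5.39, 5.39, 4.95 and 5.58 in fed rats on day 4, and at 4.58, 4.75, 4.32, 4.91 and 5.64 in fasted and 5.98, 5.73, 5.52 and 6.09 in fed rats on day 14. Fed rats were higher, with 1 fed and 1 fasted rat crossing on each day. The difference was 0.88 ± 0.24 SE, adjusted p = 0.0296 on day 4 and 0.99 ± 0.23 SE, adjusted p = 0.0231 on day 14. Its partner cyclin Ccnb2 was at 5.98, 5.78, 5.32, 5.67 and 5.29 in fasted and 6.71, 6.36, 5.83, 5.64 and 6.39 in fed rats on day 4, and at 5.67, 5.67, 5.67, 5.81 and 6.32 in fasted and 6.71, 6.57, 6.17 and 7.24 in fed rats on day 14. The groups overlapped on both days. Its change was 0.58 ± 0.20 SE, adjusted p = 0.0775 on day 4, a call lost when any 1 of 6 rats was left out (adjusted p up to 0.161), and 0.84 ± 0.20 SE, adjusted p = 0.0265 on day 14.

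Ube2c, the ubiquitin-conjugating enzyme that works with the anaphase-promoting complex, was at log2 5.86, 5.86, 5.55, 5.91 and 5.29 in fasted and 7.07, 6.21, 6.04, 5.95 and 6.02 in fed rats on day 4, and at 5.61, 5.64, 5.09, 5.58 and 6.04 in fasted and 6.98, 6.17, 6.52 and 6.89 in fed rats on day 14. No fed rat fell to the level of a fasted rat. The change was 0.57 ± 0.20 SE, adjusted p = 0.0852 on day 4, lost when any 1 of 5 rats was left out (adjusted p up to 0.175), and 1.05 ± 0.20 SE, adjusted p = 0.00865 on day 14. Ccna2, the cyclin of S phase and G2, was at 3.46, 3.58, 3.70, 3.46 and 3.70 in fasted and 4.46, 4.32, 4.46 and 5.25 in fed rats on day 14. The groups did not overlap, and the change was 1.04 ± 0.16 SE, adjusted p = 0.00333. On day 4 its fed values were 5.58, 3.58, 4.09, 3.58 and 3.81, with 1 rat far above the rest, and the change of 0.50 ± 0.32 SE was not called (adjusted p = 0.342).

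Ccnb1, the other mitotic cyclin, was at log2 5.29, 5.17, 5.36, 5.43 and 5.86 in fasted and 6.48, 5.91, 6.02 and 6.63 in fed rats on day 14. The groups did not overlap, and the change was 0.84 ± 0.17 SE, adjusted p = 0.0129. Nusap1, a protein of spindle microtubules, was at 5.39, 5.36, 5.49, 5.52 and 5.61 in fasted and 6.25, 5.95, 5.67 and 6.21 in fed rats on day 14, again without overlap, and changed by 0.55 ± 0.12 SE, adjusted p = 0.0155. The decatenating topoisomerase Top2a (0.83 ± 0.17 SE) and the midzone protein Prc1 (0.79 ± 0.14 SE) were higher on day 14, where neither had been called on day 4 (0.23 ± 0.11 SE and 0.41 ± 0.18 SE). Cdc20, Aurka and Birc5 were higher on both days, by 0.34 to 0.61. Bub1b, Plk1 and Kif11 were called on neither day, with changes of −0.06 to 0.18.

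**Figure D2:**
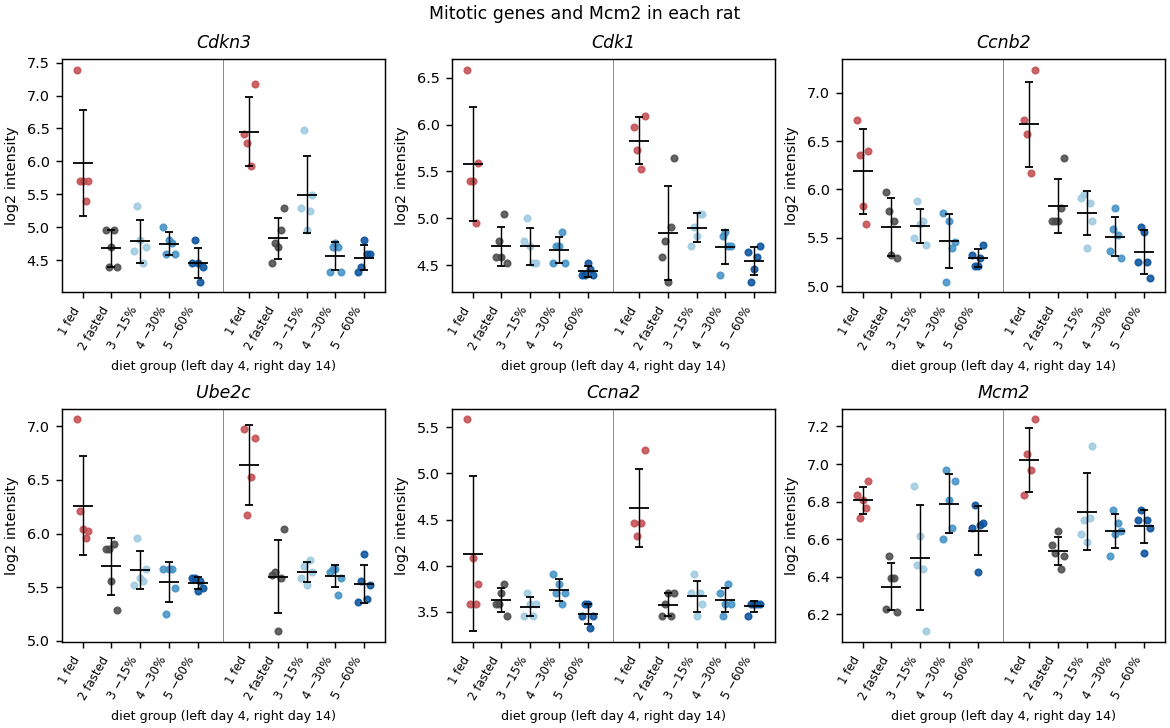
Log2 intensity in each rat (points) with the group mean and SD (bars) for 5 mitotic genes and Mcm2, by diet group, day 4 left and day 14 right. Every fed rat lies above every group 2 rat of its day for Cdkn3, and 1 fed rat of day 4 stands apart for Cdkn3, Ube2c and Ccna2.

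The fed rats varied among themselves. The mean log2 of the 18 mitotic genes was 6.30 in 1 fed rat of day 4 and 5.35 to 5.58 in the other 4. The group 2 rats of that day had 5.11 to 5.30. In the fed rat at 6.30 all 18 genes were above every group 2 rat of day 4. In the other 4 fed rats it was 6 to 13 genes. On day 14 the 4 fed rats had means of 5.65 to 6.19, and the group 2 rats 5.12 to 5.47. In each of those fed rats, 13 to 16 of the 18 genes were above every group 2 rat. Without the high rat of day 4, 13 genes were called in place of 16, and Cdkn3 changed by 0.94 (adjusted p = 0.00178). In groups 3 to 5, 0 to 5 of the 18 genes exceeded every group 2 rat of the same day in any 1 rat. These counts per rat were not made over all genes, so no share stands beside them. They describe single rats and cannot be read as particular to these genes.

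**Figure D3:**
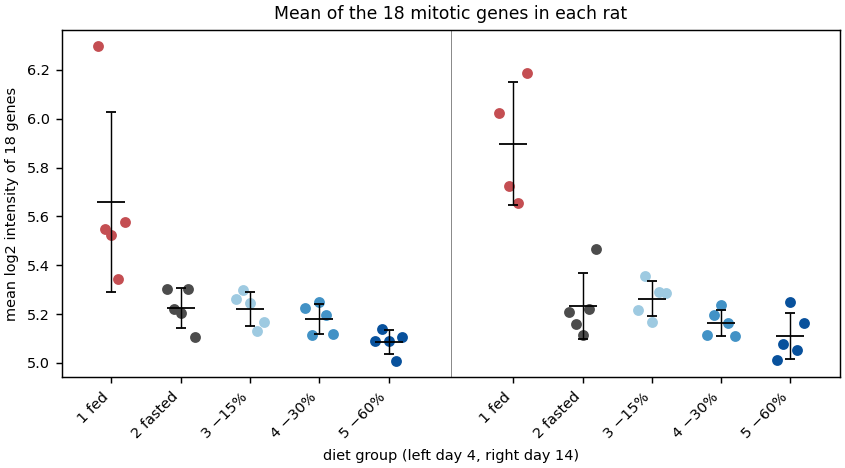
Mean log2 intensity of the 18 mitotic genes in each rat (points) with the group mean and SD (bars), by diet group, day 4 left and day 14 right. All 9 fed rats lie above every group 2 rat of their day, and 1 fed rat of day 4, at 6.30, lies above all others.

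The mitotic genes also moved together from rat to rat. With each group and day centred on its mean, the median Pearson r over the 153 gene pairs was 0.788 in the 9 fed rats (Spearman 0.729) and 0.650 in 8 without the high rat (Spearman 0.707). In the 40 fasted rats it was 0.173. With genes outside the list the median in fed rats was −0.013. For the other roles of the list that median was −0.013 to 0.027, so it is no baseline for the 0.788. These are descriptions over rats that share their array processing, with no test.

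Among the replication genes, Mcm2, a subunit of the replicative helicase, was at log2 6.23, 6.51, 6.39, 6.39 and 6.21 in fasted and 6.83, 6.71, 6.81, 6.77 and 6.91 in fed rats on day 4, and at 6.57, 6.52, 6.64, 6.44 and 6.51 in fasted and 6.83, 7.06, 6.97 and 7.24 in fed rats on day 14. No rat of the 2 groups overlapped. The change was 0.46 ± 0.07 SE, adjusted p = 0.00116 on day 4 and 0.49 ± 0.08 SE, adjusted p = 0.00592 on day 14. Mcm6 was also higher on both days (0.36 ± 0.08 SE and 0.60 ± 0.10 SE), as was Rrm1, the large subunit of ribonucleotide reductase (0.37 ± 0.09 SE and 0.45 ± 0.10 SE). Mcm5 and the thymidylate synthase Tyms were higher on day 4 alone by the call, and Mcm4 on day 14. The difference between the days was not called for any of the 38 genes (0 by limma, against 0% of all genes). At an unadjusted p below 0.05 there were 2 of the 38, and 903 of all 14217 genes. Pcna and Mcm7 did not pass on either day, with changes of −0.14 to 0.07.

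The G1 genes showed no common direction. Cdk2, the partner of cyclins E and A, was at log2 8.30, 8.27, 8.21, 8.49 and 8.33 in fasted and 7.97, 8.20, 8.02, 7.88 and 7.77 in fed rats on day 4. It was lower in every fed rat, with a change of -0.35 ± 0.08 SE, adjusted p = 0.0144. On day 14 the change of -0.24 ± 0.09 SE did not pass (adjusted p = 0.154). Ccnd2 was higher in fed rats on day 4 (0.43 ± 0.11 SE), and Ccnd1 (0.69 ± 0.21 SE) and E2f1 (0.34 ± 0.09 SE) on day 14. The inhibitor Cdkn1b was lower on day 4, with a change of -0.20 ± 0.07 SE, adjusted p = 0.0729, a call lost when any 1 of 7 rats was left out and with the mean of its 2 probe sets (−0.04). Cyclin G1, Ccng1, a p53 target, was lower on day 14, with a change of -0.32 ± 0.09 SE, adjusted p = 0.0576, a call lost when any 1 of 3 rats was left out.

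**Figure D4:**
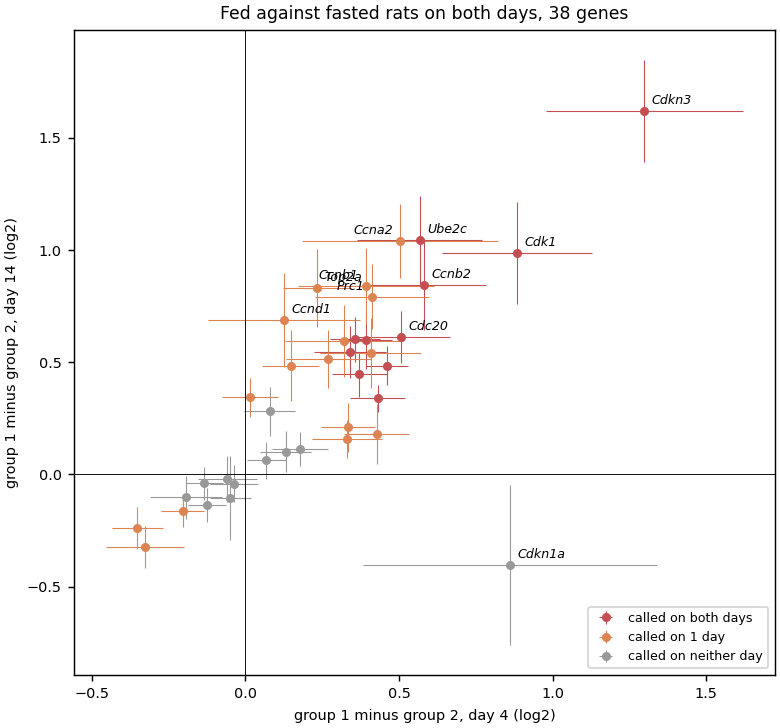
Change between fed and fasted rats (group 1 minus group 2, log2) on day 4 (x axis) and day 14 (y axis) for 38 genes, with standard errors as bars and colour for the number of days called. Of the 38 genes, 28 lie above 0 on both days and 9 below 0 on both, and Cdkn1a lies above 0 on day 4 only.

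Other genes of the same processes, from lists that hold none of the 38, were counted in the same comparison. The shares of all genes were again 9.76% higher and 11.5% lower on day 4, and 7.26% and 5.92% on day 14. Of 41 genes of mitosis and cytokinesis, 10 were higher and 0 lower on day 4, and 18 and 0 on day 14. Cks2, a small Cdk-binding protein, changed by 0.78 and 0.98, the kinetochore gene Spc24 by 0.78 and 0.66, and Ect2, needed for cytokinesis, by 1.07 on day 14. Of 45 genes of origin licensing and DNA synthesis, 11 were higher and 2 lower on day 4, and 12 and 0 on day 14, with the single-strand binding protein Rpa1 at 0.89 and 0.74 and thymidine kinase Tk1 at 0.56 and 0.63. Of 38 further cyclins, kinases, E2f and pocket protein genes, 6 were higher and 6 lower on day 4, and 1 and 2 on day 14. Of 22 p53 target genes, 4 were higher and 2 lower on day 4, and 4 and 0 on day 14.

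Of 12 measured markers of stellate cells and fibroblasts, 4 were called higher in fed rats on each day and none lower, against 9.76% and 7.26% of all genes higher. Among them were the collagen Col3a1 (0.66 and 0.70) and the retinol esterifying enzyme Lrat (0.50 and 0.99). Their mean level was 7.73 to 8.51 in fed and 7.42 to 7.95 in fasted rats on day 4, and 7.98 to 8.49 and 7.43 to 8.03 on day 14. Other marker lists had calls too. Of 13 hepatocyte markers 0 were higher and 3 lower on day 4, and 0 and 2 on day 14. Of all genes, 11.5% and 5.92% were lower. Endothelial markers had 2 lower of 10 on day 4. On day 14, T and NK cells had 1 higher and 1 lower of 17. Kupffer cells had 1 higher of 10 and erythroid cells 1 lower of 7 on that day. The lists of B and plasma cells, neutrophils and cholangiocytes had no call. The part of these markers in the result was not tested.

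The second comparison was each reduced diet against group 2, all fasted overnight. It compares the amounts of feed among groups that were all fasted. The paper's methods give a range of hours for the overnight fast. The time since each single rat last ate is not stated, and its part was not tested. Of the 38 genes, 12 were called in at least 1 of the 6 comparisons, as were 27.3% of all genes. The 6 comparisons share the group 2 rats of their day. On day 4, group 3 had 0 called genes by limma against 0.253% of all genes. At an unadjusted p below 0.05 it had 4 of the 38, and 1488 of all 14217 genes. Group 4 had 2 higher and 0 lower, against 3.05% and 2.38%. Group 5 had 2 higher and 2 lower, against 3.56% and 3.58%. On day 14, group 3 had 2 higher and 2 lower, against 3.4% and 3.14%, group 4 had 4 and 2, against 6.52% and 6.24%, and group 5 had 5 and 5, against 8.88% and 10.9%.

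Wee1 was higher in all 3 restricted groups on day 14. Its log2 values on day 14 were 6.49, 6.41, 7.36, 6.54 and 6.83 in group 2. They were 8.40, 7.73, 7.58, 8.24 and 8.43 in group 3 and 8.46, 8.01, 7.75, 8.42 and 8.01 in group 4. In group 5 they were 8.61, 8.37, 8.46, 8.15 and 8.20. Every restricted rat was above every group 2 rat. The changes were 1.35 ± 0.21 SE, adjusted p = 0.00302 in group 3, 1.40 ± 0.19 SE, adjusted p = 0.000916 in group 4 and 1.63 ± 0.16 SE, adjusted p = 7.54e-05 in group 5. Its second probe set changed by 1.06 in group 5.

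On day 4, Wee1 was at log2 6.66, 6.69, 6.66, 6.43 and 6.67 in group 2, 6.79, 6.54, 7.03, 6.21 and 6.39 in group 3, 6.32, 7.65, 6.97, 7.06 and 7.68 in group 4 and 7.0, 7.80, 6.77, 7.96 and 7.59 in group 5. Only the group 5 rats were all above group 2, by 0.80 ± 0.20 SE, adjusted p = 0.049, a call lost when any 1 of 3 rats was left out. Wee1 rose from day 4 to day 14 in group 3 (1.48 ± 0.19 SE), group 4 (1.00 ± 0.24 SE, lost when any 1 of 3 rats was left out) and group 5 (0.93 ± 0.21 SE). The change between the days in group 3 exceeded that in group 2 by 1.376 ± 0.27 SE, adjusted p = 0.0272, the 1 such call among the 38 genes, against 0.591% of all genes. In groups 4 and 5 limma called 0 of the 38, against 0.134% and 2.04%. At an unadjusted p below 0.05 there were 5 of the 38 in group 4, and 1398 of all 14217 genes. Dbp, a clock output gene looked up after the Wee1 values were seen, ran at 6.85 to 7.81 in group 2 and 9.45 to 11.15 in groups 3 to 5 on day 14. On day 4, where Wee1 was called in group 5 alone, it ran at 6.74 to 9.04 in group 2, 7.76 to 10.56 in group 3, 9.93 to 11.14 in group 4 and 10.03 to 10.79 in group 5. Its part in the Wee1 result was not tested, and the sources used here do not state the time of day of necropsy.

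Cdkn1a, the p21 inhibitor, was at log2 9.24, 8.01, 9.04, 8.26 and 9.71 in group 2 on day 14. It was at 7.57, 6.78, 7.26, 7.09 and 7.14 in group 3, at 7.98, 7.31, 7.83, 7.23 and 6.78 in group 4 and at 7.23, 7.03, 7.69, 6.97 and 8.59 in group 5. Groups 3 and 4 lay wholly below group 2, and 1 group 5 rat overlapped with it. The changes were -1.69 ± 0.28 SE, adjusted p = 0.00493, -1.43 ± 0.32 SE, adjusted p = 0.0165 and -1.35 ± 0.36 SE, adjusted p = 0.0242. On day 4, where group 2 itself ran from 7.09 to 9.80, no change was called.

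Ccng1 was at log2 8.67, 8.34, 8.41, 8.41 and 8.43 in group 2 on day 14. It was at 8.02, 8.07, 8.16, 8.07 and 8.08 in group 3, 8.04, 8.06, 8.07, 7.94 and 7.97 in group 4 and 7.92, 7.89, 7.99, 7.96 and 8.02 in group 5. All restricted rats were below all group 2 rats, with a change of -0.37 ± 0.07 SE, adjusted p = 0.00941, -0.44 ± 0.07 SE, adjusted p = 0.00302 and -0.50 ± 0.07 SE, adjusted p = 0.000913. Ccng1 was also called lower in the freely fed group 1 than in group 2 on day 14, as given above. A level below group 2 was thus not limited to the restricted groups. Cdkn1a and Ccng1 are both known p53 targets. Of the 22 other p53 targets, 0 were higher and 2 lower in group 3, 2 and 3 in group 4, and 5 and 6 in group 5, where 8.88% and 10.9% of all genes were. Phlda3 changed by −2.04 and Fas by −0.65 in group 5, whereas Ddit4 changed by 1.65, Gadd45b by 1.36 and Sesn1 by 1.18.

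Cdkn1b, the p27 inhibitor, was at log2 9.67, 9.53, 9.59, 9.49 and 9.53 in group 2 and 9.69, 9.81, 9.95, 9.85 and 9.60 in group 4 on day 14. It was at 10.13, 10.17, 9.94, 10.29 and 9.91 in group 5, above every group 2 rat. The change was 0.53 ± 0.08 SE, adjusted p = 0.00131 in group 5, and 0.22 ± 0.07 SE, adjusted p = 0.0977 in group 4, where the call was lost when any 1 of 9 rats was left out. Its second probe set did not pass in group 5 (0.27, adjusted p = 0.201).

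**Figure D5:**
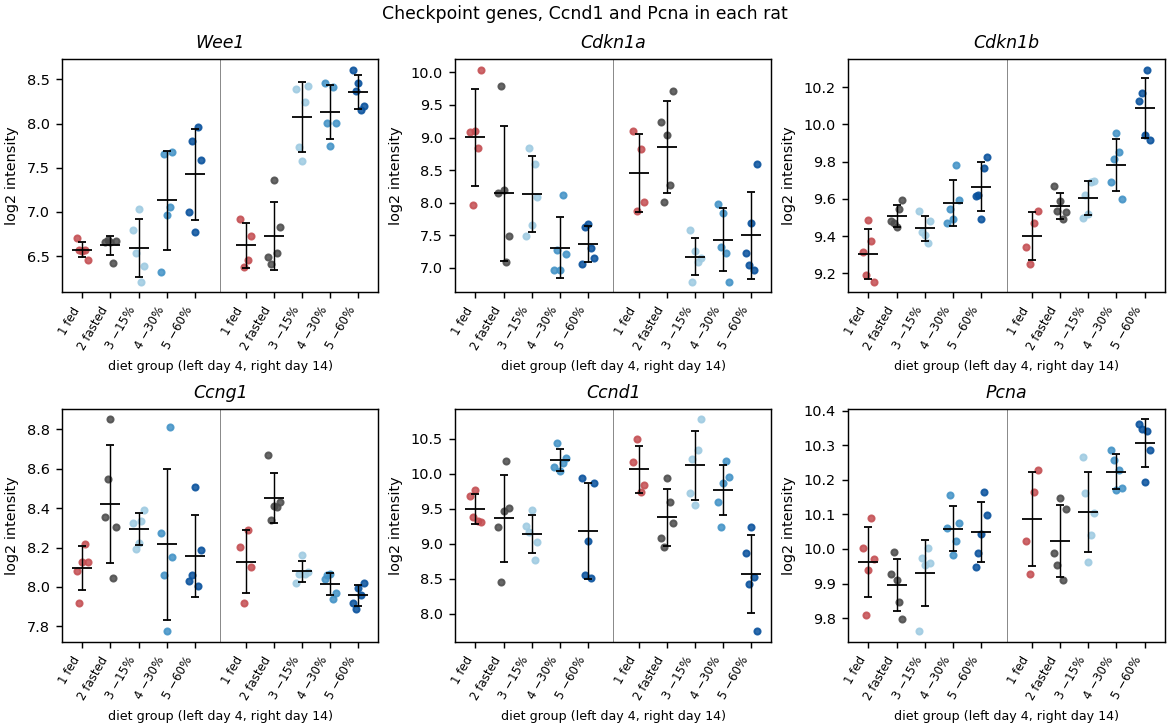
Log2 intensity in each rat (points) with the group mean and SD (bars) for Wee1, Cdkn1a, Cdkn1b, Ccng1, Ccnd1 and Pcna, by diet group, day 4 left and day 14 right. On day 14 Wee1 lies higher and Ccng1 lower in all 15 rats of groups 3 to 5 than in any group 2 rat.

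Ccnd1, the D-type cyclin of G1, did not move in 1 direction. On day 4 it was at log2 9.23, 8.45, 9.47, 10.18 and 9.51 in group 2 and 10.09, 10.44, 10.05, 10.15 and 10.23 in group 4, which overlapped. The change was 0.83 ± 0.24 SE, adjusted p = 0.0976, lost when any 1 of 9 rats was left out. On day 14 it was at 9.08, 8.95, 9.95, 9.60 and 9.30 in group 2 and 8.87, 8.43, 9.24, 8.53 and 7.75 in group 5. These also overlapped, and the change was -0.81 ± 0.26 SE, adjusted p = 0.0527, lost when any 1 of 3 rats was left out. All 3 probe sets were lower in group 5, by 0.80 to 1.06.

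E2f1, the factor that turns on S-phase genes, was at log2 5.55, 5.58, 5.25, 5.39 and 5.43 in group 2 on day 14. It was at 5.52, 5.67, 5.75, 5.88 and 5.88 in group 3, 5.73, 5.93, 5.78, 5.73 and 5.55 in group 4 and 5.70, 5.64, 5.81, 5.46 and 6.0 in group 5. Each group overlapped with group 2, and the changes were 0.30 ± 0.09 SE, adjusted p = 0.0837, 0.30 ± 0.09 SE, adjusted p = 0.0475 and 0.28 ± 0.10 SE, adjusted p = 0.0921. The group 3 call was lost when any 1 of 7 rats was left out, and the group 5 call when any 1 of 8 was. E2f1 was also called higher in the freely fed group 1 than in group 2 on day 14, as given above. A level above group 2 was thus not limited to the restricted groups.

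Among the replication genes, Mcm2 on day 4 was at log2 6.23, 6.51, 6.39, 6.39 and 6.21 in group 2, 6.60, 6.97, 6.81, 6.66 and 6.91 in group 4 and 6.66, 6.78, 6.43, 6.67 and 6.69 in group 5. Group 4 lay above group 2 and group 5 overlapped, with changes of 0.44 ± 0.09 SE, adjusted p = 0.0207 and 0.30 ± 0.08 SE, adjusted p = 0.0621. The group 5 call was lost when any 1 of 7 rats was left out. Mcm2 was also called higher in the freely fed group 1 than in group 2 on day 4, as given above. Pcna on day 14 was at 9.99, 9.95, 10.15, 9.91 and 10.12 in group 2, 10.29, 10.26, 10.17, 10.23 and 10.18 in group 4 and 10.36, 10.35, 10.19, 10.34 and 10.29 in group 5. Neither overlapped with group 2, and the changes were 0.20 ± 0.06 SE, adjusted p = 0.0786 and 0.28 ± 0.07 SE, adjusted p = 0.0168. The group 4 call was lost when any 1 of 8 rats was left out. Mcm7 was at 8.12, 8.15, 8.29, 8.04 and 8.14 in group 2 and 8.53, 8.57, 8.31, 8.38 and 8.39 in group 5 on day 14, higher in every group 5 rat by 0.29 ± 0.07 SE, adjusted p = 0.0212.

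Against group 2, 2 of the 18 mitotic genes were called lower in group 5 on each day, against 3.58% of all genes on day 4 and 10.9% on day 14. None was called in groups 3 and 4, and none was called higher. Ccnb2 on day 14 was at log2 5.67, 5.67, 5.67, 5.81 and 6.32 in group 2 and 5.25, 5.61, 5.55, 5.25 and 5.09 in group 5, without overlap, and fell by 0.48 ± 0.14 SE, adjusted p = 0.0402. Nusap1 was at 5.39, 5.36, 5.49, 5.52 and 5.61 in group 2 and 5.04, 5.32, 5.21, 5.09 and 5.21 in group 5, also without overlap, and fell by 0.30 ± 0.08 SE, adjusted p = 0.0197. On day 4 Ccnb1 was at 5.43, 5.46, 5.58, 5.52 and 5.49 in group 2 and 5.29, 5.36, 5.29, 5.00 and 5.29 in group 5, and Nusap1 at 5.43, 5.43, 5.43, 5.64 and 5.43 in group 2 and 5.29, 5.25, 5.29, 5.21 and 5.25 in group 5. Neither pair overlapped, and the changes were -0.25 ± 0.07 SE, adjusted p = 0.072 and -0.21 ± 0.06 SE, adjusted p = 0.0607, lost when any 1 of 6 and of 4 rats was left out and with the mean of each gene's probe sets. The restricted groups were not tested against one another for the number of mitotic genes called.

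In group 5 on day 14, 8.88% of all genes were higher and 10.9% lower. Other mitosis genes there numbered 1 higher and 3 lower of 41, with Ccnf at −0.49 and the tubulin Tubb5 at 0.57. The list of origin licensing and DNA synthesis had 5 higher and 2 lower of 45, with Timeless at 0.79, Tk1 at 0.47 and deoxycytidine kinase Dck at −0.51. Of the 38 further cyclins, kinases and E2f genes, 7 were higher and 4 lower, with Myc at 1.65, E2f5 at 0.59 and the phosphatase Cdc25b at −1.07. Of marker genes, 5 of 17 for T and NK cells (Prf1 −0.66), 2 of 7 for erythroid cells (Hbb −2.14 and Alas2 −1.98) and 2 of 12 for stellate cells and fibroblasts (Lox −4.20 and Pdgfrb −0.80) were called lower and none higher. The median changes were −0.16, −0.07 and −0.29, with 3, 2 and 5 of the markers above 0. Other marker lists had calls too: of 13 hepatocyte markers 2 were higher and 3 lower. The lists of B and plasma cells, Kupffer cells and neutrophils had 1 lower each, of 5, 10 and 5. Those of endothelial cells and cholangiocytes had 1 higher each, of 10 and 6. The mean level of the erythroid list was 6.94 to 7.23 in group 5 and 7.53 to 7.93 in group 2, and that of the stellate list 6.999 to 7.50 and 7.43 to 8.03. Their part in these results was not tested.

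The third comparison was between the strongest and the mildest reduction. On day 4 limma called 0 of the 38 genes between groups 5 and 3, against 0.83% of all genes. At an unadjusted p below 0.05 there were 11 of the 38, and 1819 of all 14217 genes. On day 14, 1 was higher in group 5 and 4 lower, against 3.76% and 5.79%. Ccnd1 was at log2 9.72, 10.21, 9.56, 10.34 and 10.78 in group 3 and 8.87, 8.43, 9.24, 8.53 and 7.75 in group 5, without overlap, and changed by -1.56 ± 0.28 SE, adjusted p = 0.0103. Cdkn3 was at 5.29, 6.48, 4.95, 5.25 and 5.49 in group 3 and 4.32, 4.39, 4.81, 4.58 and 4.58 in group 5, without overlap, and changed by -0.95 ± 0.23 SE, adjusted p = 0.0363. Ccnb2 (-0.41 ± 0.13 SE, lost when any 1 of 7 rats was left out) and Cdk1 (-0.36 ± 0.09 SE, lost without 1 rat of the 10) were lower too, and Cdkn1b was higher (0.48 ± 0.08 SE).

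The last comparison was day 14 against day 4 within each group. In groups 1 and 2 limma called 0 of the 38 genes, against 0% and 0.00703% of all genes. At an unadjusted p below 0.05 there were 7 and 3 of the 38, and 2125 and 1230 of all 14217 genes. In group 3, 5 genes rose and 2 fell, against 8.93% and 3.85%. Besides Wee1, Ccnd1 rose (0.98 ± 0.21 SE) with Mcm4, Rrm1 and Mcm7, and Cdkn1a (-0.96 ± 0.24 SE) and Ccng1 fell. The calls of Mcm4, Rrm1 and Ccng1 were lost when any 1 of 8, 7 and 1 of the rats was left out. In group 4, 1 rose and 1 fell, against 3.64% and 1.84%, namely Wee1 and Tyms (-0.28 ± 0.06 SE). In group 5, 4 rose and 0 fell, against 3.9% and 2.81%: Wee1, Cdkn1b (0.43 ± 0.09 SE), Pcna (0.26 ± 0.06 SE) and Bub1 (0.24 ± 0.07 SE). The calls of Pcna and Bub1 were lost when any 1 of 5 and of 8 rats was left out.

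Over all 19 comparisons, 31 of the 38 genes were called at least once, against 48% of all genes, and 7 were never called, against 52%: Cdk4, Ccne1, Ccne2, Mcm3, Bub1b, Plk1 and Kif11. Probe sets of 1 gene did not always move alike. Kif11's other probe set was higher in fed rats on day 14 (0.48, adjusted p = 0.0131), against −0.02 for the one used. The dim second probe set of Ccne2 was higher in group 5 on day 14 (0.66, adjusted p = 0.00144), against 0.04. Ccnb1's other probe set was lower there (−0.38, adjusted p = 0.0863), against 0.06. Of the 5 probe sets of Cdc20, the one used changed most in fed rats.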

How the data were processed

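Liver RNA was hybridised to Affymetrix rat genome arrays. The authors normalized the arrays by RMA (affy 1.38.1 in R 3.0.1, per the labels) and deposited linear intensity values rounded to whole numbers for 31042 probe sets, of which 20826 carried 1 symbol, 436 several and 9780 none. Here log2 of the deposited intensity was used, 1 probe set per gene. Groups came from the labels, and each rat is 1 replicate. Each comparison was fitted separately with limma 3.58.1 (lmFit, eBayes, R 4.3.3), two-sided, with Benjamini-Hochberg adjustment over 14217 genes, and called below 0.1, the level of the methods. The model of the methods, EBarrays, was not used here. The fit was tested on simulated data. Precision is limited by the number of arrays.

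The genes and lists were chosen with earlier results of these data known. Values in every rat are given for genes called with the largest changes against group 2, up to 4 in each direction, or called the same way in 3 or more of the 6 restriction comparisons. Of the other lists, up to 4 called genes with the largest changes could be named. Alternatives were another threshold, 1 fit of all groups, no dim genes, quantile normalization, median centring, the mean of probe sets, trend and robust eBayes, array weights, and leaving out each rat.

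Promoter letters were searched after the gene results were known. A first look used all 33469 listed promoters and 4 E2F letterings. A later version used 2 letterings and 1 promoter per gene, and both are kept: over all listed promoters the shares were 16.2% (CHR), 34% (CCAAT), 7.59% and 2.9% (E2F, 4 and 2 letterings) and 5.59% (E-box), with the same member counts.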

Additional observations from a re-analysis of the deposited data

Results flagged for a closer look

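Groups of 4 or 5 rats numbered 220 (17 genes and 5 role means, 10 groups each). In 23 of them the highest or lowest rat stood apart from the rest. Chance gives about 1 in 20 for unrounded, separate values. These values are rounded and the role means average the genes, so 23 of 220 cannot be set against that rate. The 1 fed rat of day 4 named in the report stood apart for the mean of the mitotic genes (log2 6.30, next 5.58), for Cdkn3 (7.39, next 5.70), Ube2c (7.07, next 6.21), Ccnb1 (6.89, next 5.81) and Ccna2 (5.58, next 4.09). These genes move together, so they are not separate events, and its cause was not tested.

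The highest rat also stood apart for Ccna2 in group 1 on day 14 (5.25), Cdk2 in group 4 on day 14 (8.44), Cdkn1a in group 4 on day 4 (8.12), Ccng1 (8.67) and Ccnb2 (6.32) in group 2 on day 14, Mcm2 in group 3 on day 14 (7.10) and Nusap1 in group 2 on day 4 (5.64). The lowest rat did so for E2f1 (5.36) and Pcna (9.76) in group 3 on day 4, Wee1 (6.43) and Mcm7 (7.91) in group 2 on day 4, Mcm7 in group 1 on day 14 (7.85), Ccna2 in group 5 on day 14 (3.46) and Ccnb1 in group 5 on day 4 (5.00). Of the role means, the highest rat stood apart for the G1 genes in group 4 on day 14 (7.74), the replication genes in group 5 on day 14 (7.02) and nucleotide supply in group 4 on day 4 (6.33), and the lowest for the replication genes in group 4 on day 14 (6.91).

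The change of Wee1 from day 4 to day 14 differed between groups 3 and 2 by 1.376 on the log2 scale (limma's adjusted p = 0.0272 for the interaction).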

How the results depend on the processing

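Of 83 calls of the 38 genes over the 19 comparisons, none changed direction under any alternative run. An adjusted p below 0.05 kept 59, 1 fit of all groups and quantile normalization 76 each, the mean of probe sets 77, array weights 79, trend with robust eBayes 80, median centring 81, and leaving out dim genes 76 of the 76 it could test. Without any 1 rat 53 were kept and 30 lost. For counts of genes called, group 1 against 2 on day 4 gave 10 in place of 16 at 0.05. Group 4 against 2 on day 4 gave 1 in place of 2 at 0.05 and with median centring, the mean of probe sets, trend with robust eBayes or array weights. Group 5 against 2 on day 4 gave 1 at 0.05 and 2 with 1 fit or the mean of probe sets, in place of 4. Group 5 against 3 gave 1 in place of 0 on day 4 with 1 fit, and 8 in place of 5 on day 14 with quantile normalization or array weights. Day 14 against day 4 in group 4 gave 1 in place of 2 at 0.05. The interaction of group 5 and day gave 1 in place of 0 with 1 fit, without dim genes, with quantile normalization or with trend and robust eBayes, and 2 with array weights. The causes were not tested.

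Leaving out 1 rat, counts ran from 11 to 16 and from 17 to 21 for group 1 against 2 on days 4 and 14. Against group 2 on day 4 they ran from 1 to 2 in group 4 and from 0 (without group 2 rat 4 or group 5 rat 5) to 4 in group 5. On day 14 they ran from 3 to 4, from 4 to 5 and from 8 to 10 in groups 3, 4 and 5. Between groups 5 and 3 they ran from 0 to 1 (without group 5 rat 3) on day 4, and from 3 (without group 3 rat 5) to 8 (without group 5 rat 3) on day 14. Between the days they ran from 4 (without group 3 day 14 rat 1) to 9 in group 3, from 1 to 2 in group 4 and from 2 to 5 in group 5. The interaction counts ran from 1 to 2 in group 3 and from 0 to 2 in group 5. Counts stayed at 0 for group 3 against 2 on day 4, between the days in groups 1 and 2, and for the interactions of groups 1 and 4. Low intensities limit the dim genes, whose values move in steps of whole units.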
